A study of Vitis vinifera with 24 samples.

Results

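The probes described here had one pattern in common: on the arrays of end-of-veraison control berries they were brighter than on the defoliated arrays of the same stage, while their average levels in the other samples of each stage lay close together. They were chosen by measured values. For each grapevine probe, the mean log2 intensity of the 6 arrays at the beginning of veraison (BV), the mean of the 6 PB and V arrays at the end of veraison (EV) and the median of the 9 arrays at harvest (H) were taken. Probes for which the EV mean lay within 0.25 of the BV mean, and the H median within 0.25 of the EV mean, were kept as steady, which left 18381 of 117999 grapevine probes. The steady probes were then ranked by their gap, the lowest of the 3 C arrays at EV minus the mean of the 6 PB and V arrays at EV, so that a positive gap means higher in C. The 200 probes with the largest gap are the members.

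Berries of the red wine grape Sangiovese (Vitis vinifera), clone 12T on the rootstock SO4, were analysed without seeds from vines of a single vineyard row. PB vines had lost the main and lateral leaves of the 6 basal nodes of each shoot before bloom, at JD 147 (day of the year), V vines had lost the same leaves at veraison, at JD 211, and C vines kept their leaves. PB and C berries were taken at BV, and PB, V and C berries at EV and H. Each of the 8 groups had 3 arrays, each with RNA pooled over 3 vines. The p-values below therefore measure the spread between pools of vines of 1 vineyard, taken over all 8 groups together. The 6 C arrays at EV and H carry labels of a cluster-thinning experiment on the same vineyard, whereas the other 18 arrays, the C arrays at BV included, carry labels of the defoliation experiment. At EV and H, being a C berry and having the label of the thinning experiment therefore cannot be told apart.

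Veraison is the turning point of berry development, at which the fruit softens, takes up sugar and, in red cultivars, begins to colour as anthocyanins build up in the skin. Removing basal leaves exposes the clusters to more sun and changes the supply of sugar from the leaves. Transcript levels were read on NimbleGen arrays, on which each oligonucleotide probe is meant to capture 1 transcript. Such arrays also hold probes of random sequence that should match no grapevine transcript, and whose brightness serves as a measure of the background of each array. The files do not pair the probe identifiers with genes or with sequences, so the members are given here by identifier for 2 probes and by rank, range and count for the others, and no gene function is assigned. For the same reason the labelled tissue could not be checked against marker genes.

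The deposited table held 19091 random-sequence probes besides the grapevine probes. Averaged over these probes, the log2 level lay between 5.77 and 6.03 on the 6 BV arrays and between 5.90 and 6.00 on the 6 PB and V arrays at EV. It was 7.15, 6.31 and 6.73 on C replicates 1, 2 and 3 at EV, above all of the PB and V arrays of that stage. At H it was 6.38, 6.56 and 6.03 in PB berries and 6.03, 5.91 and 5.98 in V berries, against 5.89, 6.29 and 6.26 in C berries. The C arrays at EV therefore lay above all BV arrays and above the PB and V arrays of their own stage in their random-sequence probes, whereas C replicate 2 at EV lay below PB replicates 1 and 2 at H.

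The median log2 intensity over the 200 members was 6.51, 6.64 and 6.33 on the 3 PB arrays at EV and 6.39, 6.48 and 6.34 on the 3 V arrays at EV, against 10.38, 8.72 and 9.47 on the 3 C arrays at EV. At BV it was 6.30, 6.65 and 6.45 in PB berries, against 6.58, 6.60 and 6.32 in C berries. At H it was 7.08, 7.04 and 6.69 in PB berries and 6.60, 6.38 and 6.59 in V berries, against 6.33, 6.80 and 6.43 in C berries. The C arrays at EV were the highest of the 24, and PB replicates 1 and 2 at H came next. On the C arrays at EV, the 10th percentile of the members was 8.39, 7.67 and 8.00 on replicates 1, 2 and 3, while the 90th percentile of the members was at most 8.65 on the PB and V arrays of that stage. As means ± SD of the 3 array medians, the members stood at 6.49 ± 0.15 in PB and 6.41 ± 0.07 in V berries at EV, against 9.53 ± 0.83 in C berries (n = 3 each). The spread among the C arrays at EV was larger than in any other group by this measure. The differences at EV, and the likeness of BV, EV and H in the rest, were what the members were selected on, so they are descriptions and no test applies to them.

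Among the members, the gap ran from 1.68 to 3.47 with a median of 1.99. The mean over PB and V minus the mean over C at EV ran from -4.62 to -1.83 with a median of -2.75, whereas the median over all grapevine probes was 0.01, that over steady grapevine probes -0.04 and that over random-sequence probes -0.58. The limits of steadiness and the choice of the 200 both cut through a continuous distribution. Rank 200 had a gap of 1.6815, with a mean of 6.21 over PB and V and values of 9.45, 7.96 and 7.89 in C berries. The next probe in the ranking had a gap of 1.6777, with 7.68 over PB and V and 10.35, 9.50 and 9.36 in C berries. Without the requirement of steadiness, 2588 grapevine probes had a gap at least as large as that of rank 200. Of these, 2388 were not steady, 2155 of them because the H median was too far from the EV mean and 1515 because the EV mean was too far from the BV mean, with some failing both.

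The member with the largest gap was VitusP00012792, at 3.47. At EV its log2 intensity was 6.68, 6.70 and 7.13 in PB berries and 5.70, 6.63 and 5.97 in V berries, against 11.79, 9.94 and 10.61 in C berries. On the linear scale of the deposited values, this is 52.05 to 140.35 on the PB and V arrays, against 983.42 to 3529.36 on the C arrays. At BV it was 7.18, 6.83 and 6.74 in PB berries, against 6.04, 6.58 and 6.26 in C berries. At H it was 6.12, 7.73 and 6.57 in PB and 7.43, 6.25 and 5.57 in V berries, against 6.36, 7.48 and 7.11 in C berries. The C arrays at EV did not overlap with any other array, and the 21 others ran from 5.57 to 7.73, with both ends at H. Its mean over PB and V minus that over C at EV was -4.31.

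VitusP00235209 came next, with a gap of 3.36. At EV it was 5.51, 5.55 and 6.06 in PB berries and 5.70, 6.38 and 6.60 in V berries, against 10.42, 9.33 and 9.34 in C berries, a difference of -3.73. At H it reached 7.68 on PB replicate 1 and 7.48 on V replicate 3, whereas its lowest values, 5.22 on PB replicate 2 and 5.09 on C replicate 3, came from the same stage. In neither of the 2 probes did the tested contrasts described below pass the threshold. The difference of PB minus C at BV was 0.62 ± 0.50 (SE) for VitusP00012792 and -0.55 ± 0.55 for VitusP00235209, and that of PB minus V at EV was 0.74 ± 0.50 and -0.52 ± 0.55 in the same order. The adjusted p-values from limma over all grapevine probes lay between 0.594 and 1.00 for both probes and all 5 contrasts.

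On the other arrays most members were dim. The mean over PB and V at EV ran from 5.13 to 11.76 with a median of 6.42. The median was 8.46 over all grapevine probes and 5.76 over the random-sequence probes. Over the steady grapevine probes, from which the members were drawn, it was 6.99, so much of the distance from all grapevine probes was shared by the steady probes. By this mean, 63 members lay below 6, 78 between 6 and 7, 33 between 7 and 8, and 26 at 8 or more. A probe was counted as above background where it exceeded the random-probe mean, that is the average log2 level of those probes, on at least 2 of the 3 arrays of a group. By this count 144 members were above background in PB and 137 in V berries at EV, 122 of them in both, against 200 in C berries at EV. Of all grapevine probes, 82.6% and 82.7% were above background in PB and in V berries at EV, against 67.1% in C berries. Thus every member counted as above background in C berries at EV, the group in which the fewest grapevine probes did. That count rests on the C arrays by which the members were chosen and follows closely from the rule, so nothing is read from it.

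With the 95th percentile of the random-sequence probes as a stricter limit, 36 members were above it in both PB and V berries. The 95th percentile itself was 10.61, 8.53 and 9.62 on C replicates 1, 2 and 3 at EV, and at most 7.68 on the PB and V arrays of that stage. On all 3 C arrays at EV, 67 members exceeded it, which is 33.5% of the members and 23.8% of all grapevine probes. On no C array at EV did 68 members exceed it, which is 34% of the members and 48.6% of all grapevine probes. The members were chosen for high values on the C arrays at EV, so both counts on these arrays are descriptions. On none of the 21 other arrays did 80 members exceed it, which is 40% of the members and 19.8% of all grapevine probes. For these 80, the mean over PB and V at EV was at most 6.49, and their median difference at EV was -2.71.

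A small group of members was bright in the other samples too. Above the 95th percentile of the random-sequence probes on all 6 PB and V arrays at EV were 25 members, or 12.5%, compared with 53.6% of all grapevine probes. Their mean over PB and V ran from 7.87 to 11.76 and that over C from 10.18 to 13.70, with a median difference of -2.36. Of the 25, 24 also exceeded the 95th percentile on all 3 C arrays, and the highest place that any held was rank 59. The brightest was rank 182. At EV it was 11.99, 12.20 and 11.70 in PB berries and 10.78, 11.62 and 12.26 in V berries, against 13.92, 13.48 and 13.70 in C berries. At H it was 11.89, 12.27 and 11.56 in PB and 11.13, 11.92 and 13.10 in V berries, against 11.86, 11.22 and 10.98 in C berries. The C arrays at EV were the highest of all for this probe, with V replicate 3 at H the nearest.

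The random-sequence probes were passed through the same rule. Steady in the same sense were 5893 of them, and 131 had a gap at or above that of rank 200. This is 2.22% of the steady random-sequence probes, compared with 1.09% of the steady grapevine probes, and 0.686% of all random-sequence probes, compared with 0.169% of all grapevine probes. The largest gap was 3.47 among grapevine and 3.77 among random-sequence probes. A gap above 0 was held by 26.3% of the steady grapevine and 41.3% of the steady random-sequence probes. The larger share of random-sequence probes held at every level of brightness. Below a mean of 6 over PB and V, 0.945% of the steady grapevine and 1.48% of the steady random-sequence probes met the rule. Between 6 and 7 it was 3.08% and 5.09%, and between 7 and 8 it was 3.08% and 5.47%, grapevine first in both. At 8 or more, 26 of 8110 grapevine probes met it, or 0.321%, and 4 of 19 random-sequence probes.

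The 131 random-sequence probes had medians of 10.06, 8.32 and 8.91 on C replicates 1, 2 and 3 at EV and between 5.77 and 6.59 on the 21 other arrays, each below the member median of the same array. When the random-probe mean of each array was subtracted, the median difference of the members at EV, PB and V minus C, was -1.97. The same subtraction moved the median of all grapevine probes to 0.80 and that of the random-sequence probes to 0.21. With the rule applied again to the subtracted values, 108 of the 200 members were chosen and 132 random-sequence probes met it. The part of the background of the C arrays in these values was not tested.

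The 3 C arrays at EV were not equally high. Replicate 1 was the highest for 167 members, and replicate 2 was the lowest for 158, replicate 3 for 25 and replicate 1 for 17. In 144 members, or 72%, the order was replicate 1, then 3, then 2, which is also the order of the random-probe means of these arrays. Of all grapevine probes 26.0% had this order, of all random-sequence probes 36.8%, and of the 131 random-sequence probes that met the rule 68.7%. The rule used the lowest C array of each probe. Of the 25 bright members, 21 had this order.

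Seen against the other arrays, all 3 C arrays at EV lay above all 6 PB and V arrays at EV for 199 members, while 14.7% of all grapevine probes and 21.8% of all random-sequence probes showed this. For 142 members, they lay above all 21 other arrays, compared with 2.96% of all grapevine and 4.52% of all random-sequence probes, and with 86 of the 131 random-sequence probes that met the rule. Both follow closely from the rule. In the limma model 194 members were called lower in PB than in C berries at EV, against a background of 9.63% of all grapevine probes, and 197 lower in V than in C berries, against 8.41%. The median differences were -2.76 and -2.84. These counts use the contrast on which the members were chosen, and nothing is read from them.

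The contrasts that the rule did not use were PB against C at BV, PB against V at EV, and PB against C, V against C and PB against V at H. They were tested with limma over all grapevine probes, with a call at an adjusted p below 0.02 and at least a 2-fold difference. In none of the 5 was a member called. The background was 0% in each, since no grapevine probe at all was called in these contrasts, so the members did not differ from the rest in this. The lowest adjusted p among the members was 1.00 for PB minus C at BV, 1.00 for PB minus V at EV, 0.113 for PB minus C at H, 0.183 for V minus C at H and 0.138 for PB minus V at H. The median standard error of a difference was 0.53 in each contrast.

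PB minus C at BV and PB minus V at EV were both centred near 0 over the members. PB minus C at BV had a median of -0.06 over the members and ran from -0.97 to 0.98. At an unadjusted p below 0.05 stood 2 members, rank 158 with -0.83 ± 0.39 and rank 188 with 0.98 ± 0.45 (SE), and 0.728% of all grapevine probes. PB minus V at EV had a median of 0.10 and ran from -0.95 to 1.21, with 120 members higher in PB. At an unadjusted p below 0.05 stood 1 member, rank 166, with 0.93 ± 0.43 (SE), and 1.14% of all grapevine probes. The model shared the residual variance of a probe over all 8 groups. The SD within a group, as root mean square over all grapevine probes, was 0.45 and 0.52 in PB and C at BV. It was 0.45 and 0.42 in PB and V at EV, but 1.01 in C at EV. At H it was 0.92 in PB, 0.80 in C and 0.60 in V berries. PB minus C at BV and PB minus V at EV were therefore judged against a larger spread than that of their own groups, which lowers their counts. PB minus C at H was judged against a smaller spread than that of its own groups, which raises its counts.

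At H the members leaned towards PB berries. PB minus C at H had a median of 0.44 over the members and ran from -1.39 to 2.11, with 141 members higher in PB, while the median over all grapevine probes was -0.02. PB minus V at H had a median of 0.40 and ran from -1.86 to 2.24, with 145 members higher in PB, and 0.06 over all probes. V minus C at H had a median of 0.00, with 100 members higher in V, and -0.04 over all probes. The random-probe mean at H, averaged over the 3 arrays of a group, was also highest in PB berries. It was 6.33 in PB, 5.97 in V and 6.15 in C berries. How far the lean of the members goes with this background was not tested. The number of probes higher in PB was not counted over all grapevine probes. At an unadjusted p below 0.05 stood 24 members for PB minus C, 22 higher and 2 lower in PB, which is 12% of the members and 9.16% of all grapevine probes. For PB minus V it was 24 members, 21 higher and 3 lower in PB, again 12%, and 17.7% of all grapevine probes. For V minus C it was 12 members, 6 in each direction, or 6%, and 16.7% of all grapevine probes. The counts were therefore near or under the background, and the lean was seen in the medians and directions only. The limit on the H median held for the members but not for all grapevine probes, so nothing is concluded from the lower shares.

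The lowest adjusted p at H belonged to rank 198 in both contrasts of PB, with a difference of 1.59 ± 0.33 (SE) against C and 1.56 ± 0.33 against V. The calls at H turned on single arrays. Without PB replicate 3 at H, 6 members were called for PB minus V, ranks 14, 132, 150, 175, 179 and 198, all higher in PB by 1.46 to 2.17, while 5.21% of all grapevine probes were called. Without C replicate 1 at H, 1 member was called for V minus C, rank 108, higher in V by 2.26, while 2.46% of all grapevine probes were called. The difference of PB minus V at EV from PB minus V at H, tested as an interaction, was called in 0 members and in 0% of all grapevine probes, and 9 members, or 4.5%, stood at an unadjusted p below 0.05, compared with 7.59% of all grapevine probes.

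The deviation at H was largest on a pair of PB arrays. Each member was set against its own median over the 9 arrays at H. The median of these deviations was 0.39, 0.47 and 0 on PB replicates 1, 2 and 3 and 0, -0.10 and 0 on V replicates 1, 2 and 3, against -0.16, 0.16 and 0 on C replicates 1, 2 and 3. More than 1 above their own median were 65 members on PB replicate 1 and 63 on PB replicate 2, and 23 on PB replicate 3. On V replicates 1, 2 and 3 it was 12, 4 and 37 members, and on C replicates 1, 2 and 3 it was 1, 46 and 27. As shares of the members, these are 32.5%, 31.5% and 11.5% on the PB arrays, compared with 8.38%, 15.8% and 3.31% of the steady grapevine probes. On the V arrays they are 6%, 2% and 18.5%, compared with 2.02%, 1.94% and 6.22%. On the C arrays they are 0.5%, 23% and 13.5%, compared with 1.90%, 9.99% and 10.1%. The share of members was thus near or under that of the steady probes on V replicate 2 and C replicates 1 and 3. These shares were not matched for level. Of the 18381 steady probes 8110 had a mean of 8 or more over PB and V at EV, against 26 of the 200 members. The 131 random-sequence probes that met the rule had medians of 6.59 and 6.55 on PB replicates 1 and 2, their highest at H. More than 1 above their own H median on PB replicates 1 and 2 at once were 20 members, or 10%, and 2.52% of the steady grapevine probes. The range of a member over the 9 arrays at H ran from 0.79 to 6.02 with a median of 2.40, so that a median within 0.25 of the EV mean did not make the single arrays at H alike.

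Some members thus reached their lowest C value of EV on single arrays at H. All 3 C arrays at EV lay above all 9 arrays at H for 143 members, or 71.5%, compared with 6.63% of all grapevine probes. Of the 131 random-sequence probes that met the rule, 65.6% showed this. The rule chose high C values at EV and held the H median near the EV mean. The share of members therefore follows closely from the rule, and nothing is read from its distance to all grapevine probes. The counts for single arrays below were not taken over all grapevine probes. On PB replicate 1, 21 members were at or above their lowest C value of EV, on PB replicate 2 18 and on PB replicate 3 4. On V replicate 3 it was 9 members, on C replicate 2 9 and on C replicate 3 3. At BV and EV there was 1 such member on C replicate 1 at BV and 1 on PB replicate 3 at EV.

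The random-sequence probes were brightest on PB replicates 1 and 2 at H, while V replicate 3, with 9 such members, had a random-probe mean of 5.98, below the 6.03 of V replicate 1, with 0. Over the 9 arrays at H, the median deviation of the members and the mean of the random-sequence probes had a Pearson's r of 0.93 and a Spearman's rho of 0.96, given as a description. The 9 points share the array, its normalization and its brightness distribution. Without PB replicates 1 and 2, r was 0.82, and with the group means subtracted it was 0.95. For single members the relation was weak, with a median r of 0.32 and 147 of 200 above 0, or 73.5%, compared with 55.6% of steady grapevine probes and 83.2% of the 131 random-sequence probes that met the rule. On the 6 arrays at BV, 66% of the members had an r above 0, compared with 47.1% of the steady grapevine probes. On the 6 PB and V arrays at EV it was 67% of the members and 51.8% of the steady grapevine probes. Over the arrays, r was 0.76 and rho 0.71 at BV, and r was 0.99 without C replicates 1 and 3. Over the PB and V arrays at EV, r was 0.96 but rho was 0.49, and without PB replicates 2 and 3 r was -0.80, so that the relation at EV rested on those arrays.

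Grapevine probes that neighbour each other in the order of their identifiers varied together in part. Over the 21 arrays other than C at EV, adjacent probes had a median r of 0.30, compared with 0.015 for probes 10 places apart. The members with their next probe had a median r of 0.10. Among the members there was 1 pair of adjacent probes and 4 pairs that stood 2 places apart. The 394 grapevine probes next to a member that were not members had a median of -0.59 for PB and V minus C at EV. It was 0.01 for all grapevine probes and -0.58 for the random-sequence probes, near that of the neighbours. A difference of -1 or less was seen in 151 of the neighbours, or 38.3%, compared with 18.2% of all grapevine probes. A difference of 1 or more was seen in 10.7%, compared with 22.8%.

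Neighbours of members were dimmer than the average probe, and brightness went with the difference at EV, so they were also set beside the other probes within 2 classes of level. With a mean below 7 over PB and V, 242 neighbours had a median of -0.83, compared with -0.31 for the 39536 grapevine probes below 7, and 43.0% and 27.8% had -1 or less. With a mean of 7 or more, 152 neighbours had a median of -0.16, compared with 0.28, and 30.9% and 13.3% had -1 or less. In the upper class the neighbours were still the dimmer, with a median level of 8.35 over PB and V, compared with 9.98, so that class does not match the level, whereas in the lower class the medians were 5.98 and 5.94. No test was applied to this, and what adjacent probes share besides their place in the list was not analysed here.

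The membership itself depended on single arrays more than the values of the members did. Chosen again without C replicate 2 at EV, the rule picked 59 of the 200 members. Without any other single array it picked 136 to 176. With the mean of the 3 C arrays in place of the lowest, it picked 98.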

How the data were processed

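RNA from pools of Sangiovese berries was hybridised with 1 colour (Cy3). The authors deposited 1 table of fluorescence intensities per probe for the 24 arrays, on a linear scale and already normalized. The scanning, background correction and normalization software is not given in the sources used here. Of 139363 rows, 137090 held values. Columns were matched to samples by treatment, stage and replicate number in the labels.

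Log2 values of the intensities were used without a pseudocount or a filter. A limma model with 1 mean per group, for 8 groups (lmFit and eBayes, 16 residual degrees of freedom, R 4.3.3, limma 3.58.1) was fitted to all 117999 grapevine probes, with Benjamini-Hochberg adjustment over all of them. Descriptions were made with Python 3.11.15, numpy 2.4.6 and pandas 2.3.3. The scripts were tested on simulated data. No pair of arrays held identical values (highest correlation 0.979), so all 24 entered the fit. Precision is limited by the number of arrays. The study's analysis was per gene, while this was per probe, because the identifiers are not paired with genes in the files.

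The members, the comparisons and the alternatives were chosen with earlier results of these data known. By rule, only the 2 members with the largest gap were named. Alternatives were median centring with MAD scaling, quantile normalization over the grapevine probes, the random-probe mean as a covariate or subtracted, a fit of only the groups compared, eBayes with trend and robust estimation, an adjusted p limit of 0.05, no minimum fold, 2 filters on dim probes, a replicate block, SAM over all permutations of the labels, and leaving out each array. The limit by the linear mean of the random-sequence probes was added after seeing the data. Members that a filter on dim probes would remove stay in all counts.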

Additional observations from a re-analysis of the deposited data

How the results depend on the processing

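In the 5 contrasts tested, 0 members were called under every alternative tried, SAM and the replicate block included, apart from leaving out certain arrays at H. SAM called 0 to 4 of all grapevine probes per contrast. Without PB replicate 3 at H, 6 members, or 3%, were called for PB minus V (range 0 to 6 over the arrays left out), against 5.21% of all grapevine probes. For PB minus C at H, the same omission gave 473 calls over all grapevine probes and 0 members. Without C replicate 1 at H, 1 member, or 0.5%, was called for V minus C (range 0 to 1), against 2.46% of all grapevine probes. The cause was not tested. In the study each replicate was the pool of a single block of vines. No pairing by replicate number was seen, which does not show that the samples were unpaired. Same-numbered arrays of different groups had correlations of -0.38 to 0.31 between their deviations, with 16 of 84 over 0.1. Differently numbered arrays had -0.37 to 0.54, with 30 of 168 over 0.1. With 3 arrays in every group, a replicate block cannot change a difference of group means, so it is no check of the difference at EV. The median difference of the members at EV, PB and V minus C, was -2.75 with and without it. It was -2.97 with MAD scaling, -2.88 with quantile normalization and -1.97 with the random-probe mean subtracted, with medians over all grapevine probes of -0.20, -0.10 and 0.80 in that order, against 0.01, and ran from -3.11 to -2.42 with single arrays left out. For VitusP00235209 the difference was -2.94 with the random-probe mean subtracted. Above the random-probe mean in both PB and V at EV were 122 members, 36 with the 95th percentile as limit and 95 with the linear mean. The correlation at H ran from 0.798 to 0.964 with single arrays left out. Of the 200 members, the rule chose 161 again with MAD scaling, 160 with quantile normalization, 108 with the random-probe mean subtracted, 98 with the mean of the C arrays, and 59 to 176 with single arrays left out. The filter on the lowest 25% of probes kept 129 members, and that on the random-probe mean 200. Dim members near the background carry the least information in the other samples.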
